A study of Mus musculus with 12 samples.

Results

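DNA repair genes were followed in RNA-seq libraries of mouse articular chondrocytes. The list holds 40 genes of mismatch repair, homologous recombination, the Fanconi pathway, end joining and related steps. They were chosen by gene symbol from these pathways, and are 40 of 17536 genes in the deposited table. The 12 libraries form 4 groups of 3, from 5-day-old mice labelled C57BL/6 (C57BL/6J littermates in the study's methods). R3-Cntl mice were Runx3 fl/fl and R3-cKO mice were Col2a1-Cre; Runx3 fl/fl, so both carried the floxed alleles and only R3-cKO carried Cre, driven by the promoter of the cartilage collagen gene Col2a1. From each genotype, superficial zone (SFZ) cells were released first from the cartilage of limb bone ends by enzyme digestion, and deeper zone (DZ) cells by further digestion. The study's methods describe monolayer culture of such cells, so the libraries are of isolated cells and not of intact cartilage. By the study's account the libraries of a group came from separate mice. It does not say which SFZ and DZ libraries share a mouse. The values are FPKM, a read abundance corrected for gene length and library size, in a unit inferred from the values and not stated in the file. FPKM is scaled to transcript length, so levels can be set side by side between genes. Read depth is unknown. Values are given below in the order of libraries 1, 2 and 3 of each group.

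Cells repair DNA by pathways that differ in when they can act. Homologous recombination copies the lost sequence from the sister chromatid, which exists only after replication, and the Fanconi pathway frees replication forks that are blocked where the strands are crosslinked. Mismatch repair corrects errors left by the replication machinery. End joining ligates broken ends directly and single-strand break and excision repair replace damaged bases or short stretches, and both can act throughout the cell cycle. Many genes for replication and recombination are transcribed as cells enter S phase under E2F factors, and many mitotic genes are transcribed later, near division. Cartilage of newborn mice still grows, and its chondrocytes divide.

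Runx3 itself was measured first. Its level was 10.7, 5.98 and 6.65 FPKM in R3-Cntl SFZ, 11.8, 9.07 and 3.42 in R3-cKO SFZ, 12.7, 12.7 and 7.66 in R3-Cntl DZ, and 15.95, 12.7 and 8.14 in R3-cKO DZ. The R3-cKO libraries were not lower than their controls: the log2 fold change was -0.04 (SE 0.43, adjusted p = 1.0, limma) in SFZ and 0.13 (SE 0.28, adjusted p = 0.999) in DZ. The groups are therefore named below as the libraries labelled R3-cKO and R3-Cntl, and no direction is read as an effect of losing Runx3. A gene's FPKM covers all of its exons, so reads from the floxed part were not separated from the rest.

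Library numbers 2 and 3 did not match across the SFZ groups. Over 11359 genes, the deviation of R3-Cntl SFZ 3 from its group mean correlated with that of R3-cKO SFZ 2 at r = 0.69, but same-numbered libraries correlated at -0.09 for number 2 and -0.42 for number 3. In the SFZ the number is used only as a name, except in the fits with a replicate block, which take it as a pairing.

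The zones were checked with markers. The summed level of 6 superficial zone genes was 255, 709 and 235 FPKM in R3-Cntl SFZ, 226, 186 and 1086 in R3-cKO SFZ, 3.26, 6.46 and 16.7 in R3-Cntl DZ, and 10.9, 7.01 and 8.35 in R3-cKO DZ. All 6 SFZ libraries were above all 6 DZ libraries. Among these genes, Prg4, which encodes the lubricant lubricin, was 22.2, 8.38 and 7.13 FPKM in R3-Cntl SFZ, 6.95, 2.47 and 2.13 in R3-cKO SFZ, 1.39, 1.22 and 1.47 in R3-Cntl DZ, and 5.72, 1.32 and 2.14 in R3-cKO DZ. Every R3-cKO SFZ library was below every R3-Cntl SFZ library, with a log2 fold change of -1.45 (SE 0.52, unadjusted p = 0.0307, adjusted p = 1.0). The sum over 13 chondrocyte genes was 17420, 5590 and 10520 FPKM in R3-Cntl SFZ, 14880, 8669 and 6480 in R3-cKO SFZ, 39680, 24880 and 31990 in R3-Cntl DZ, and 26140, 17210 and 31170 in R3-cKO DZ, with Col2a1 the most abundant of the 13 in every library. In DZ it was lowest in R3-cKO library 2, and in SFZ it was lowest in R3-Cntl library 2. Blood, vessel and muscle markers were low in most libraries. Over 10 erythroid genes the sum was under 1 FPKM in every library, and in the DZ libraries the sum over 10 endothelial genes did not exceed 2.65 FPKM. The endothelial sum was 8.97, 6.64 and 2.23 FPKM in R3-Cntl SFZ and 5.86, 2.53 and 2.9 in R3-cKO SFZ. R3-Cntl SFZ library 2 held 214 FPKM over 12 skeletal muscle genes, and no other library held more than 19.5.

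Proliferation was read from a mitosis index, the mean log2(FPKM + 1) of 32 genes of chromosome segregation and cell division, none of which is a repair gene of the list. It was 3.51, 4.46 and 5.26 in R3-Cntl SFZ, 3.0, 4.97 and 1.75 in R3-cKO SFZ, 2.76, 4.09 and 2.45 in R3-Cntl DZ, and 3.85, 4.83 and 2.21 in R3-cKO DZ. The proliferation marker Mki67 was 13.8, 28.8 and 50.5 FPKM in R3-Cntl SFZ, 8.34, 40.2 and 2.67 in R3-cKO SFZ, 5.44, 20.3 and 6.30 in R3-Cntl DZ, and 14.1, 35.1 and 3.81 in R3-cKO DZ. The index therefore varied more between libraries of 1 group than between groups, and both R3-cKO groups held libraries near both ends of its range. It cannot be told apart here whether a library with a high index held more dividing cells or more of these transcripts per cell.

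To ask which repair classes follow proliferation, each gene was fitted on the index over all 12 libraries with a term for each group, so that only differences within groups set the slope. The slope is the change in log2(FPKM + 1) per 1 log2 unit of the index. All 40 genes passed the filter of 1 FPKM or more in 3 or more libraries. Palb2 passed it only through the 3 libraries with the highest index (1.31, 1.10 and 1.01 FPKM). The slope was positive and past the threshold (limma, adjusted p under 0.05) for 27 of 40 repair genes, beside 21.5% of the 11765 genes tested. It was negative and past it for 0 repair genes, beside 10.5% of all genes. At an unadjusted p under 0.05 it was negative for 0 repair genes and for 1888 of all genes. The median slope was 0.20 for the 40 genes and 0.02 for all genes tested. For the 27 genes the slopes ran from 0.15 to 0.80. For the other 13 they ran from -0.01 to 0.06, and no 95% confidence interval among these reached beyond -0.12 or 0.15.

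The classes differed in how many genes followed the index. Homologous recombination had 10 of 13 genes past the threshold, with a median slope of 0.36, and the Fanconi pathway had 8 of 11, with a median of 0.25. Single-strand break and excision repair had 3 of 3 (median 0.20) and the damage kinases 2 of 2 (median 0.16). Mismatch repair was split, with 3 of 6 (median 0.12). End joining had 1 of 5, with a median of 0.01. Both were close to the values over all genes, 21.5% and 0.02. For comparison, 27 S-phase genes had a median slope of 0.63, with 27 of 27 past the threshold. Adding 1 before the logarithm understates changes of low genes. With 0.1 added instead, the medians were 0.52 for homologous recombination, 0.26 for the Fanconi pathway, 0.13 for mismatch repair and 0.01 for end joining. The slope then grew by more than 1.5-fold for Exo1 (0.62 to 0.97), Bard1 (0.39 to 0.66) and Palb2 (0.24 to 0.47). With 5 added, slopes were examined only for the repair genes whose values are given below in every library. Of those past the threshold, the slope fell by more than 1.5-fold for Exo1 (to 0.333), Rad54l (0.314), Fanci (0.343) and Fancb (0.399). The slopes of the more abundant Xrcc6, Xrcc1, Parp1 and Ercc1 then rose, at most to 0.231 for Parp1.

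**Figure D1:**
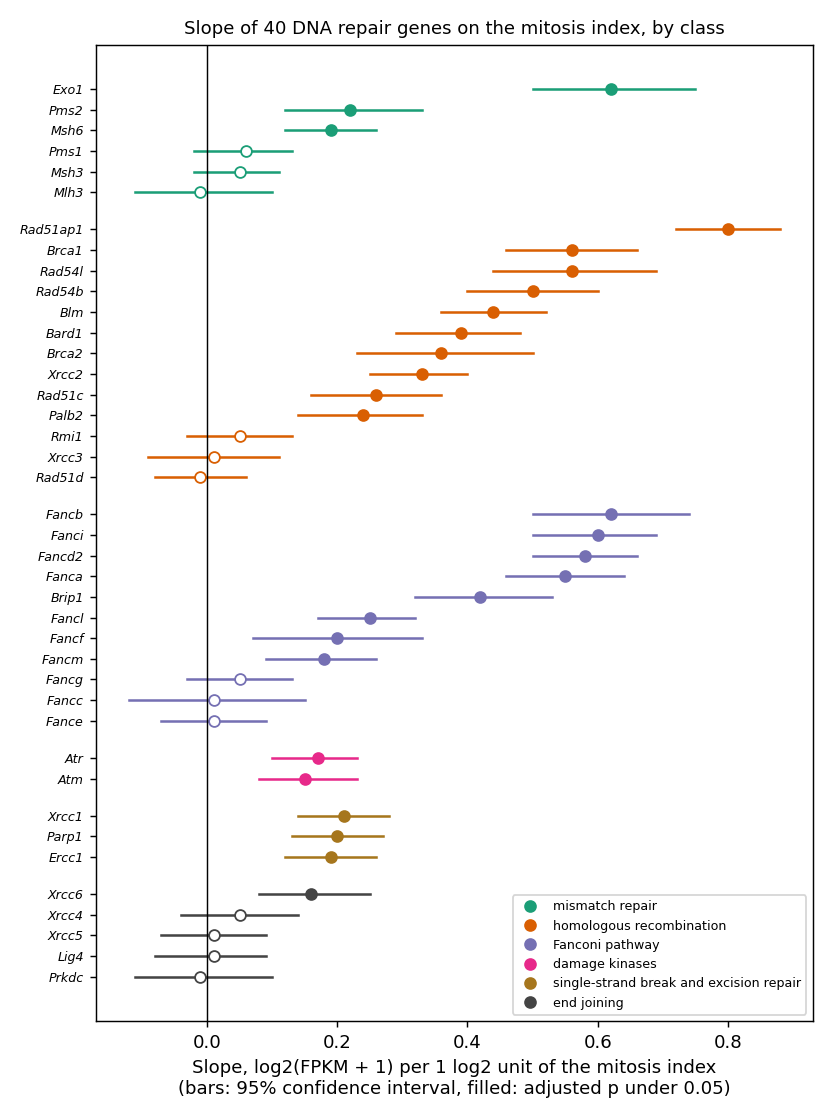
Slope of each of the 40 repair genes on the mitosis index (x axis, log2(FPKM + 1) per log2 unit of the index), by class, from 12 libraries. Points are fitted slopes, bars are 95% confidence intervals and filled points passed adjusted p under 0.05. Rad51ap1 has the highest slope, 0.80, and 4 of the 5 end joining genes lie between -0.01 and 0.05.

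Since many of these genes moved together, their promoters were searched for E2F sites. RefSeq windows (GRCm38.p6) of 250 bases before to 50 after each start matched 34 of the 40 genes, with 39 promoters. Rad54b, Prkdc, Exo1, Fancd2, Rad51d and Xrcc2 were not matched. The E2F site was searched on both strands as TTTCCCGC, TTTGGCGC, TTTCGCGC or TTTGCCGC. It was in 23.1% of the 39 promoters and in 2.26% of all 32851. Among genes past the threshold 24.0% of 25 promoters held it, and among the others 21.4% of 14. In the 250 bases before the start alone it was in 12.8% of the 39 promoters and 1.86% of all, with 12.0% among genes past the threshold and 14.3% among the others. By class, it was in 5 of 13 promoters of homologous recombination, 2 of 6 of mismatch repair, 1 of 10 of the Fanconi pathway, 1 of 5 of end joining and 0 of the kinases or the single-strand break and excision genes.

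Of the 5 genes with an E2F site in the 250 bases before the start, 4 are shown, because they include genes that followed the index and 1 that did not. Each line gives 30 bases, 5′ to 3′ on the strand of the gene, with the site in capitals:
Bard1: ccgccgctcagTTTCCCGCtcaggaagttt
Brca2: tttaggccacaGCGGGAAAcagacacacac
Xrcc6: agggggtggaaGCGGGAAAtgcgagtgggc
Fancg: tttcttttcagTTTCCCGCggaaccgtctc

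Each window had 1 exact match in the mouse genome build NCBIM37 (mm9). The positions were chr1:71149737-71149766 for Bard1, chr5:151325017-151325046 for Brca2, chr15:81846742-81846771 for Xrcc6 and chr4:43023207-43023236 for Fancg. Bard1 and Fancg lie on the minus strand. No annotated exon (GENCODE vM1) overlapped the Bard1 and Brca2 windows. The Xrcc6 and Fancg windows overlapped an annotated exon of the same gene. Bard1 (slope 0.39), Brca2 (0.36) and Xrcc6 (0.16) followed the index, but Fancg (0.05) did not pass.

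A shorter core, TTCCCGCC, TTTCCCGC or TTTGGCGC, which overlaps the E2F site, was in 28.2% of the 39 promoters and 3.21% of all. The CHR element, TTTGAA or TTCGAA, was in 5.13%, those of Atr and Bard1, and in 19.2% of all. These matches are descriptions of the windows only.

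Homologous recombination was examined first. Rad51ap1, which stimulates strand exchange by the recombinase, was 4.2, 7.69 and 12.6 FPKM in R3-Cntl SFZ, 2.22, 10.5 and 0.81 in R3-cKO SFZ, 1.97, 4.64 and 1.72 in R3-Cntl DZ, and 4.13, 8.92 and 1.20 in R3-cKO DZ. Its order across the 12 libraries nearly repeated that of the index, with the lowest value in R3-cKO SFZ library 3 and the highest in R3-Cntl SFZ library 3, and all 4 groups overlapped. Its slope was 0.80 (SE 0.036, 95% confidence interval 0.72 to 0.88, adjusted p = 2.37e-07). Rad54l, a motor protein that moves along DNA during strand exchange, was 1.18, 2.92 and 4.71 FPKM in R3-Cntl SFZ, 0.95, 3.46 and 0.54 in R3-cKO SFZ, 0.87, 1.56 and 0.61 in R3-Cntl DZ, and 1.60, 3.29 and 0.30 in R3-cKO DZ. It too was highest in R3-Cntl SFZ library 3, and the lowest level, in R3-cKO DZ library 3, was 15.7-fold lower. The slope was 0.56 (SE 0.055, 95% confidence interval 0.44 to 0.69, adjusted p = 8.42e-05). Rad54b, a related motor, had a slope of 0.50.

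Brca1, with its partner Bard1, promotes resection of broken ends, and Palb2 links it to Brca2, which loads the recombinase. All 4 had positive slopes past the threshold, 0.56 for Brca1, 0.39 for Bard1, 0.36 for Brca2 and 0.24 for Palb2. Brca1 ranged from 0.45 to 4.63 FPKM, and Palb2, the least abundant of the 40 genes, from 0.28 to 1.31 FPKM. The slope of Palb2 also passed with no filter on low values. Blm, the helicase that separates joined strands, had a slope of 0.44 and ranged from 1.23 to 5.42 FPKM.

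Not every gene of the class followed. The paralogs of the recombinase were split: Xrcc2 (slope 0.33) and Rad51c (0.26) passed the threshold, while Xrcc3 and Rad51d did not. Rad51d was 2.90, 3.13 and 2.78 FPKM in R3-Cntl SFZ, 3.74, 3.17 and 3.27 in R3-cKO SFZ, 2.08, 2.21 and 2.12 in R3-Cntl DZ, and 2.18, 2.41 and 2.36 in R3-cKO DZ. Its values in the SFZ were all above those in the DZ, and within each group they bore no visible relation to the index. Its slope was -0.01 (SE 0.031, 95% confidence interval -0.08 to 0.06, adjusted p = 0.900). Xrcc3 was 3.13, 3.24 and 3.74 FPKM in R3-Cntl SFZ, 2.74, 2.85 and 2.89 in R3-cKO SFZ, 1.39, 2.13 and 2.19 in R3-Cntl DZ, and 1.99, 2.36 and 2.52 in R3-cKO DZ. It was again higher in every SFZ library than in every DZ library, and its slope was 0.01 (SE 0.046, 95% confidence interval -0.09 to 0.11, adjusted p = 0.870). Rmi1, a partner of Blm, had the highest mean level of the class, 6.10 FPKM, and a slope of 0.05 (adjusted p = 0.294).

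In the Fanconi pathway a core complex attaches ubiquitin to the pair Fancd2 and Fanci, which then recruits nucleases to the crosslink. Fanci was 1.28, 2.74 and 4.55 FPKM in R3-Cntl SFZ, 1.21, 4.33 and 0.34 in R3-cKO SFZ, 0.78, 2.0 and 0.89 in R3-Cntl DZ, and 1.98, 3.62 and 0.65 in R3-cKO DZ. The 3 libraries with the highest index had the 3 highest values, and the slope was 0.60 (SE 0.041, 95% confidence interval 0.50 to 0.69, adjusted p = 6.75e-06). Its partner Fancd2 had a slope of 0.58. Brip1, a helicase that acts with Brca1, had a slope of 0.42 and ranged from 0.49 to 3.44 FPKM.

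The core complex itself was not uniform, with 5 of its 8 genes past the threshold. Fancb was 1.55, 3.02 and 5.31 FPKM in R3-Cntl SFZ, 1.09, 5.34 and 0.79 in R3-cKO SFZ, 1.28, 2.76 and 1.09 in R3-Cntl DZ, and 2.43, 5.42 and 0.94 in R3-cKO DZ. Library 2 of the R3-cKO groups and library 3 of R3-Cntl SFZ stood above 5 FPKM, and the slope was 0.62 (SE 0.054, 95% confidence interval 0.50 to 0.74, adjusted p = 3.77e-05). Fanca had a slope of 0.55, Fancl, the ubiquitin ligase subunit, 0.25, Fancf 0.20, and Fancm, the helicase that recognises the stalled fork, 0.18. Fancc was 3.18, 2.76 and 2.58 FPKM in R3-Cntl SFZ, 2.73, 3.18 and 2.03 in R3-cKO SFZ, 3.58, 2.29 and 3.01 in R3-Cntl DZ, and 3.29, 2.22 and 2.44 in R3-cKO DZ. No group stood apart, and the slope was 0.01 (SE 0.061, 95% confidence interval -0.12 to 0.15, adjusted p = 0.902). Fance was 8.38, 9.79 and 8.70 FPKM in R3-Cntl SFZ, 9.37, 7.85 and 8.20 in R3-cKO SFZ, 6.18, 8.07 and 6.94 in R3-Cntl DZ, and 7.26, 7.50 and 7.63 in R3-cKO DZ. It had the highest mean of the class, 7.99 FPKM, a 1.58-fold range and a slope of 0.01 (SE 0.037, 95% confidence interval -0.07 to 0.09, adjusted p = 0.876). Fancg had a slope of 0.05 (adjusted p = 0.344).

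Mismatch repair held both patterns. Exo1, the exonuclease that removes the strand carrying the error and also resects broken ends, was 0.97, 2.20 and 4.11 FPKM in R3-Cntl SFZ, 0.56, 3.16 and 0.25 in R3-cKO SFZ, 0.62, 1.68 and 0.47 in R3-Cntl DZ, and 1.35, 3.74 and 0.30 in R3-cKO DZ. The range from lowest to highest was 16.4-fold, the widest of the 40 genes, and the slope was 0.62 (SE 0.055, 95% confidence interval 0.50 to 0.75, adjusted p = 4.33e-05). Pms2, a MutL protein that nicks the strand to be removed, was 3.35, 4.02 and 5.09 FPKM in R3-Cntl SFZ, 2.26, 4.79 and 2.13 in R3-cKO SFZ, 3.01, 3.49 and 2.76 in R3-Cntl DZ, and 2.92, 4.29 and 2.97 in R3-cKO DZ. The library with the highest index was again the highest of each group. Its slope was 0.22 (SE 0.046, 95% confidence interval 0.12 to 0.33, adjusted p = 0.00532), and that of Msh6, the MutS protein for single mispaired bases, was 0.19. Msh3, the MutS protein for larger loops, was 4.0, 4.05 and 3.93 FPKM in R3-Cntl SFZ, 3.27, 3.68 and 3.51 in R3-cKO SFZ, 2.97, 3.59 and 3.18 in R3-Cntl DZ, and 3.28, 3.73 and 3.01 in R3-cKO DZ. All 12 values lay within a 1.36-fold range, and the slope was 0.05 (SE 0.030, 95% confidence interval -0.02 to 0.11, adjusted p = 0.254). Mlh3, a MutL protein known best from meiotic crossing over, was 3.56, 2.60 and 3.53 FPKM in R3-Cntl SFZ, 3.81, 2.88 and 2.81 in R3-cKO SFZ, 4.49, 4.32 and 4.18 in R3-Cntl DZ, and 4.45, 3.63 and 3.84 in R3-cKO DZ. The SFZ values were below all DZ values but that of R3-cKO library 2, and its slope was -0.01 (SE 0.046, 95% confidence interval -0.11 to 0.10, adjusted p = 0.922). Another MutL protein, Pms1, had a slope of 0.06 (adjusted p = 0.258).

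**Figure D2:**
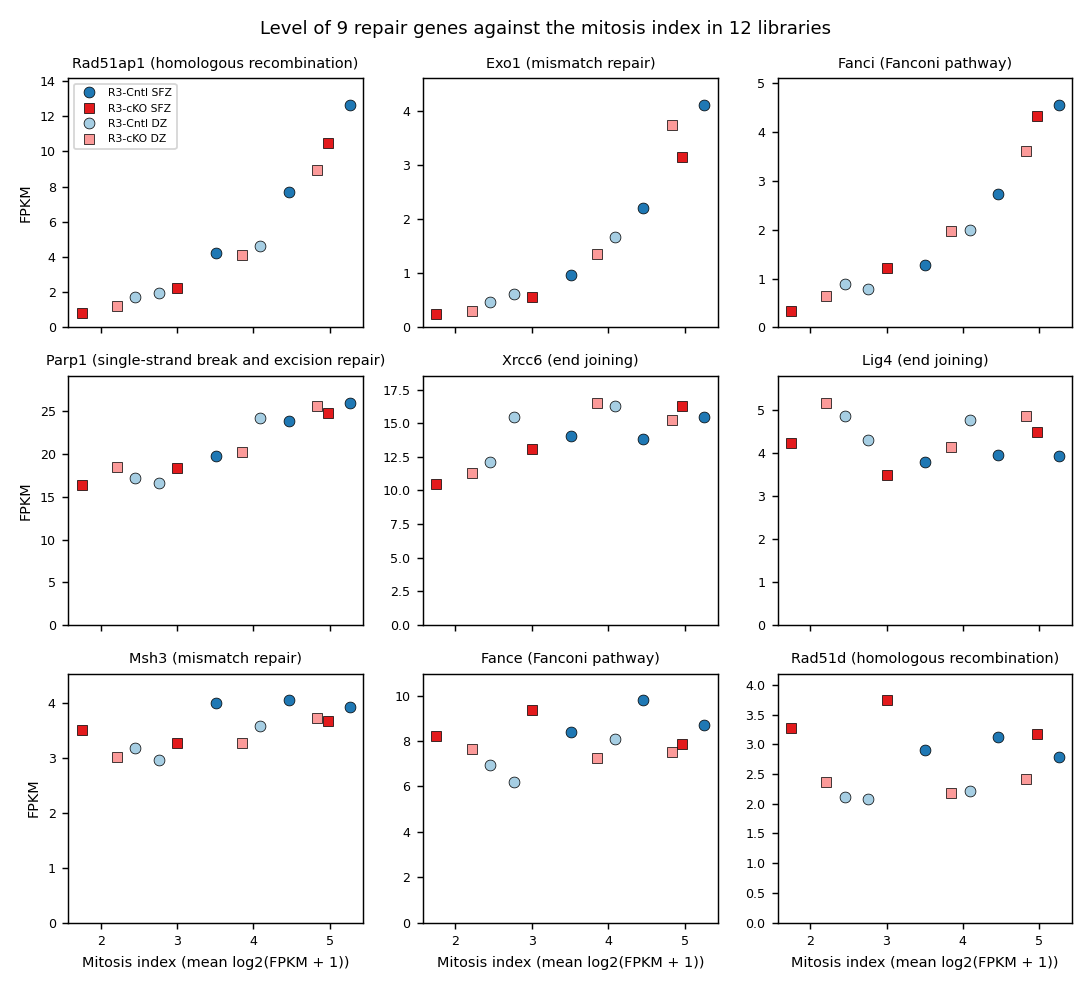
FPKM of 9 repair genes (y axis, from 0) against the mitosis index (x axis, mean log2(FPKM + 1) of 32 genes) in 12 libraries, 1 point each, with zone and genotype label by colour and shape. Rad51ap1, Exo1 and Fanci climb with the index over the 4 groups, Parp1 and Xrcc6 vary by less than 1.6-fold, and Lig4, Msh3, Fance and Rad51d have slopes from -0.01 to 0.05.

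The damage kinases Atm, activated by double-strand breaks, and Atr, activated by stalled forks, both followed the index with small slopes. Atm was 3.96, 4.41 and 5.26 FPKM in R3-Cntl SFZ, 3.68, 4.49 and 3.49 in R3-cKO SFZ, 2.23, 3.35 and 2.58 in R3-Cntl DZ, and 3.11, 3.77 and 2.32 in R3-cKO DZ. In each group the library with the highest index had the highest value, and its slope was 0.15 (SE 0.034, 95% confidence interval 0.08 to 0.23, adjusted p = 0.00818). Atr was 3.87, 4.28 and 5.37 FPKM in R3-Cntl SFZ, 3.43, 4.56 and 2.98 in R3-cKO SFZ, 4.03, 4.44 and 3.42 in R3-Cntl DZ, and 4.23, 4.46 and 2.99 in R3-cKO DZ. Its highest value was in the library with the highest index, R3-Cntl SFZ 3, and the slope was 0.17 (SE 0.029, 95% confidence interval 0.10 to 0.23, adjusted p = 0.00220). With a replicate block the slope of Atm was 0.157 and no longer passed, and neither kinase passed in SFZ or DZ libraries alone.

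Single-strand break and excision repair genes were abundant and shifted modestly. Parp1, which binds nicks and makes poly(ADP-ribose), was 19.7, 23.8 and 26.0 FPKM in R3-Cntl SFZ, 18.4, 24.9 and 16.4 in R3-cKO SFZ, 16.6, 24.3 and 17.2 in R3-Cntl DZ, and 20.2, 25.6 and 18.4 in R3-cKO DZ. The 5 libraries with the highest index were above the other 7. Xrcc1, the scaffold that Parp1 recruits, was 17.0, 16.9 and 20.9 FPKM in R3-Cntl SFZ, 15.8, 18.6 and 11.7 in R3-cKO SFZ, 13.2, 17.0 and 11.4 in R3-Cntl DZ, and 17.9, 20.0 and 13.3 in R3-cKO DZ. Ercc1, a subunit of the nuclease that cuts beside bulky lesions, was 18.8, 22.8 and 28.5 FPKM in R3-Cntl SFZ, 20.6, 28.2 and 20.4 in R3-cKO SFZ, 16.7, 18.8 and 14.1 in R3-Cntl DZ, and 20.7, 24.0 and 17.0 in R3-cKO DZ. Both were highest in R3-Cntl SFZ library 3. The slopes of the 3 genes were close to each other, 0.21 for Xrcc1 (SE 0.031, adjusted p = 0.00105), 0.20 for Parp1 (SE 0.031, adjusted p = 0.00135) and 0.19 for Ercc1 (SE 0.032, adjusted p = 0.00230). In SFZ libraries alone Xrcc1 (0.181) and Ercc1 (0.188) did not pass. In DZ libraries alone Parp1 (0.210) and Ercc1 (0.186) did not.

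End joining had the smallest share of genes past the threshold, 1 of 5, near the 21.5% of all genes tested. Lig4, the ligase that seals the ends, was 3.80, 3.95 and 3.94 FPKM in R3-Cntl SFZ, 3.50, 4.50 and 4.24 in R3-cKO SFZ, 4.31, 4.78 and 4.87 in R3-Cntl DZ, and 4.15, 4.87 and 5.18 in R3-cKO DZ. In R3-Cntl every DZ value was above every SFZ value, and the slope was 0.01 (SE 0.037, 95% confidence interval -0.08 to 0.09, adjusted p = 0.898). Xrcc4, the partner of Lig4, was 5.75, 4.72 and 5.0 FPKM in R3-Cntl SFZ, 5.86, 6.28 and 5.48 in R3-cKO SFZ, 6.01, 5.04 and 4.91 in R3-Cntl DZ, and 5.69, 6.29 and 4.66 in R3-cKO DZ. The highest value was 1.35-fold the lowest, and the slope was 0.05 (SE 0.040, 95% confidence interval -0.04 to 0.14, adjusted p = 0.398). Prkdc, the DNA-dependent protein kinase, was 2.15, 2.37 and 2.01 FPKM in R3-Cntl SFZ, 2.08, 2.09 and 2.34 in R3-cKO SFZ, 1.64, 2.49 and 2.73 in R3-Cntl DZ, and 2.20, 2.03 and 1.96 in R3-cKO DZ. Both its lowest and its highest value were in R3-Cntl DZ, and the slope was -0.01 (SE 0.047, 95% confidence interval -0.11 to 0.10, adjusted p = 0.933). Of the Ku pair that first grips the ends, Xrcc5 had a slope of 0.01 (adjusted p = 0.869) at a mean of 19.0 FPKM. Xrcc6 was the exception of the class. It was 14.0, 13.8 and 15.5 FPKM in R3-Cntl SFZ, 13.1, 16.3 and 10.5 in R3-cKO SFZ, 15.5, 16.3 and 12.1 in R3-Cntl DZ, and 16.5, 15.3 and 11.3 in R3-cKO DZ. Library 3 was the lowest of its group in 3 of the 4 groups, and the slope was 0.16 (SE 0.037, 95% confidence interval 0.08 to 0.25, adjusted p = 0.00857). It did not pass without R3-cKO SFZ library 2 (0.159), which leaves 0 of 5 genes of the class, nor in 4 other alternatives, those of SFZ or DZ libraries alone among them.

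**Figure D3:**
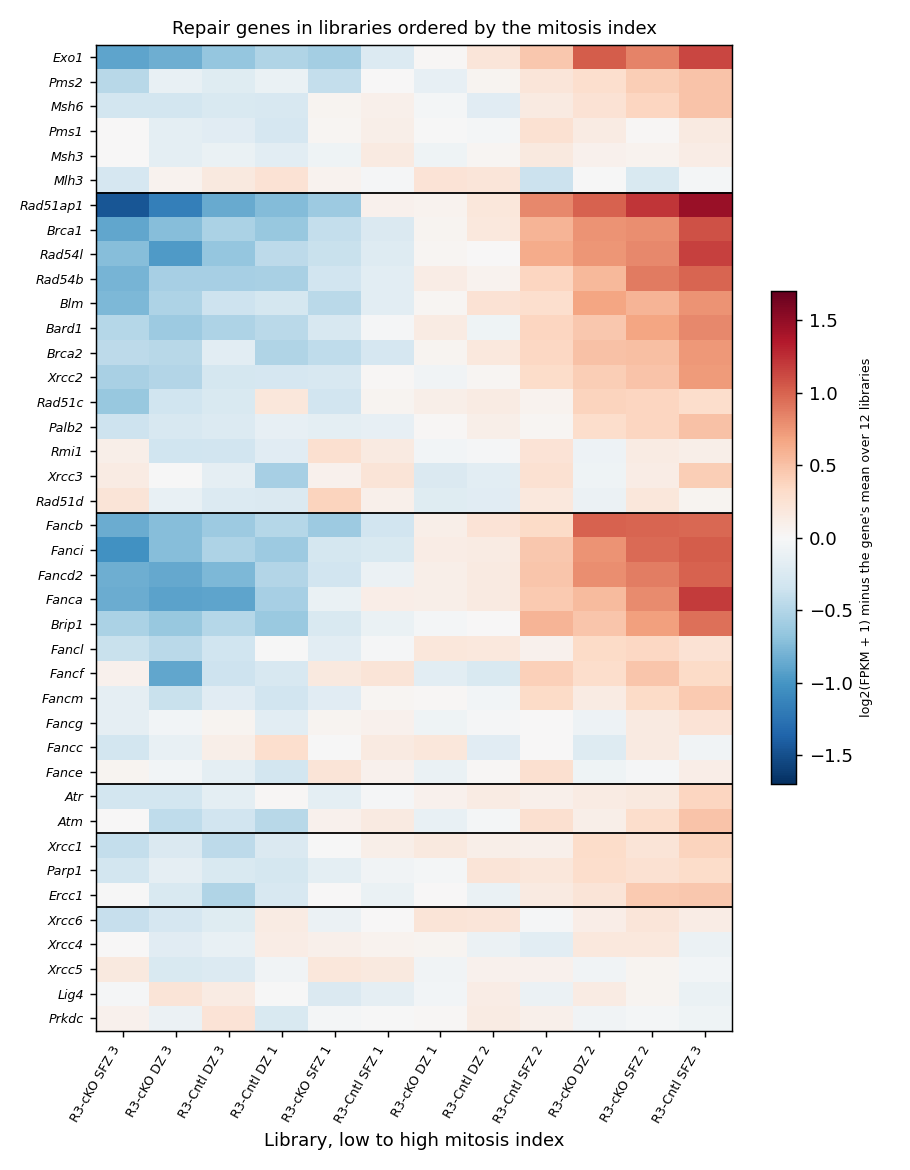
Level of the 40 repair genes in 12 libraries ordered from low to high mitosis index, as log2(FPKM + 1) minus each gene's mean, with lines between classes in the order mismatch repair, homologous recombination, Fanconi pathway, damage kinases, single-strand break and excision repair, and end joining. The change from blue to red from left to right is strong for Exo1, Rad51ap1 and Fanci and faint for the end joining genes.

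Other repair genes were counted in 3 lists. Among all genes tested 21.5% rose and 10.5% fell. Of 36 further double-strand break repair genes tested, 23 rose with the index and 1 fell (median slope 0.18). Of 23 Fanconi and damage signalling genes, 13 rose and 0 fell (median 0.20), with 1 negative slope at an unadjusted p under 0.05. Of 33 mismatch and excision repair genes tested, 13 rose and 2 fell (median 0.06). This share was below the 3 of 3 single-strand break and excision genes among the 40, so those 3 do not stand for excision repair as a whole. The 4 highest slopes were those of Clspn (0.86), a fork checkpoint mediator, Lig1 (0.76), the replicative ligase, Hells (0.75), a chromatin remodeller, and Eme1 (0.69), a nuclease subunit. The 4 lowest were those of Nthl1 (-0.19, adjusted p = 0.0135), a glycosylase for oxidised bases, Slx1b (-0.17, adjusted p = 0.00359), a nuclease subunit, Neil1 (-0.13, adjusted p = 0.156), another glycosylase, and Xpa (-0.12, adjusted p = 0.0675), a damage verification factor of nucleotide excision repair.

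The genes most like homologous recombination were sought among 11693 genes outside the list and the index. After group means were removed, the 5 closest to the class mean over 12 libraries were Zwilch (r = 0.999), a kinetochore protein, and Kif14, Hells, Fbxo5 and Rrm2 (r = 0.998 each). Kif14 is a mitotic motor, Fbxo5 an inhibitor of the anaphase-promoting complex and Rrm2 a subunit of ribonucleotide reductase. These are descriptions of 12 libraries that share a wide range of the index.

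Slopes of chondrocyte, macrophage and bone cell markers were mostly negative. Of 13 chondrocyte genes, 12 had negative slopes (median -0.16) and 1 fell past the threshold, beside 10.5% of all genes, so that count was not above the background. All 10 macrophage and leukocyte genes tested had negative slopes (median -0.49) but 0 passed the threshold with limma, and 3 were below an unadjusted p of 0.05. The sum over the 12 such genes in the table was 199.5, 169 and 7.86 FPKM in R3-Cntl SFZ, 168, 16.6 and 79.3 in R3-cKO SFZ, 8.80, 7.67 and 26.6 in R3-Cntl DZ, and 6.79, 4.93 and 3.76 in R3-cKO DZ, with Lyz2 the most abundant in every library. The 2 SFZ libraries with the highest index, R3-Cntl 3 and R3-cKO 2, had the lowest SFZ sums. Of the 3 skeletal muscle genes tested, 2 had positive slopes and 1 a negative slope (median 0.33), with 0 past the threshold or at an unadjusted p under 0.05. The 8 bone cell genes tested had a median slope of -0.23 and 0 passed, with 1 positive and 1 negative at an unadjusted p under 0.05. Whether these markers had a part in the slopes of repair genes was not tested. Without R3-Cntl SFZ library 2 and R3-cKO SFZ library 3, a choice made after seeing the data, 26 of 40 repair genes passed, all of them among the 27, beside 17.2% of all genes.

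The slopes did not pass equally in each zone fitted alone. With 6 SFZ libraries 18 of 39 repair genes passed, all higher, beside 6.80% of all genes. With 6 DZ libraries it was 13 of 38, beside 6.71%. A slope for each zone in 1 model, also added after seeing the data, gave no difference between zones past the threshold, 0 of 40 repair genes and 0% of all genes (limma). At an unadjusted p under 0.05 the counts were 1 repair gene and 599 of 11765 genes. When the filter asked for a mean level of 5 FPKM or more, 6 of 10 repair genes passed, beside 25.0% of all genes. With quantile normalization, all genes split into 1961 higher and 1810 lower, in place of 2535 and 1234, and with median-of-ratios size factors into 2147 and 1647. The same 27 repair genes passed under both.

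The comparison of genotypes asked whether repair genes differ between libraries labelled R3-cKO and R3-Cntl. In SFZ, limma called 0 of 39 repair genes and 0% of 11537 genes. At an unadjusted p under 0.05 there were 0 repair genes, with 21 genes higher and 13 lower over all. The median log2 fold change was -0.22 for the repair genes, with 34 of 39 below 0, and -0.01 for all genes. It was -0.44 for homologous recombination, -0.27 for the Fanconi pathway and 0.05 for end joining, and the median for the mitosis genes was -1.16. Rad51ap1 had the lowest value, -1.07 (SE 0.72, adjusted p = 1.0). The 3 R3-cKO libraries spanned most of its range, 0.81 to 10.5 FPKM. The median was -0.38 without R3-cKO SFZ library 2, with 12 of 36 repair genes and 1204 of 11436 genes at an unadjusted p under 0.05 and 0 called. Leaving out library 3 instead gave -0.14 over 36 repair genes for that of R3-Cntl and -0.12 over 39 for that of R3-cKO. These medians are therefore not all over the same genes. Exo1, Bard1 and Brca2 reached 1 FPKM in SFZ only in R3-Cntl libraries 2 and 3 and R3-cKO library 2. They were not tested where R3-Cntl library 3 or R3-cKO library 2 was left out.

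In DZ, limma called 0 of 38 repair genes and 0% of 11091 genes, with 0 repair genes at an unadjusted p under 0.05 and 277 genes higher and 127 lower over all. The median was 0.13 for the repair genes and 0.05 for all genes. With quantile normalization these were 0.06 and -0.02, and 23 of 38 repair genes were above 0 in place of 31. Without R3-cKO DZ library 2 the median was -0.03, with 20 of 31 repair genes below 0. Without R3-cKO DZ library 3 it was 0.27 over 38. In that last fit 4 repair genes and 773 genes were at an unadjusted p under 0.05, with 0 called. Exo1, Brca1, Rad54l, Rad54b, Fancd2, Fanci and Brip1 reached 1 FPKM in DZ only in R3-Cntl library 2 and R3-cKO libraries 1 and 2. These libraries had the highest index in DZ. The 7 genes had log2 fold changes of 0.30 to 0.39 and dropped out without R3-cKO DZ library 2. Whether the direction rested on that library or on these genes was not tested. Same-numbered libraries deviated together here, and with the replicate number as a block limma called 0 genes, with 2 repair genes and 1830 genes at an unadjusted p under 0.05. The mitosis genes had a median of 0.55. The median was -0.59 for 13 chondrocyte genes, with 12 below 0, and -0.46 for 8 bone cell genes, with 6 below 0. At an unadjusted p under 0.05, 2 of these chondrocyte genes and 3 of these bone cell genes were lower, and 0 were higher. Whether these markers had a part in the shift of the repair genes was not tested. The interaction of zone and genotype was called for 0 of 40 repair genes and 0% of 11765 genes, with 0 repair genes at an unadjusted p under 0.05, and 78 genes higher and 21 lower over all. Without R3-cKO SFZ library 2 the unadjusted counts were 10 repair genes and 714 genes, and with the replicate block 1 and 506, with 0 genes called in both.

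Groups of 3 whose values do not overlap were counted as a description, since an exact permutation test of 3 against 3 cannot give a 2-sided p below 0.1. In SFZ, Msh3, Pms1 and Xrcc3 were lower in every R3-cKO library than in every control, and Rad51d was higher, 4 of 39 beside 2.40% of all genes. All 4 are genes whose slope on the index did not pass. The index itself overlapped between the SFZ groups, so genes that follow it closely were likely to overlap as well. The absence of such genes among the 4 therefore says little about them. In the case of Msh3 the R3-cKO values were 3.27, 3.68 and 3.51 FPKM and the control values 4.0, 4.05 and 3.93. In DZ it was 0 of 38 beside 8.03%.

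The zones were compared within each genotype label. In R3-Cntl, limma called 0 of 38 repair genes and 1.24% of 11336 genes, 17 higher in DZ and 123 lower. This split depended on the scaling, with 0 and 1 under quantile normalization and 4 and 13 under median-of-ratios size factors. It also depended on single libraries, with 204 and 301 without SFZ library 1 and 0 genes called without SFZ library 2, DZ library 1 or DZ library 2, while repair genes at an unadjusted p under 0.05 ran from 4 to 21. At an unadjusted p under 0.05, 15 repair genes were lower in DZ and 1 higher, beside 2542 and 560 of all genes. In either direction, 4 repair genes were below this p with quantile normalization and 8 with median-of-ratios size factors. The median log2 fold change of DZ over SFZ was -0.41 for the repair genes and -0.17 for all genes. With quantile normalization the medians were -0.12 and 0.05, a shift of both, and 26 of 38 were below 0 in place of 32. Homologous recombination had a median of -0.54, the Fanconi pathway -0.61 and end joining 0.04, and the mitosis genes -1.35. The lowest adjusted p was that of Fancf, 0.0566, with a log2 fold change of -0.61 (SE 0.11). Fancf was 4.80, 5.59 and 5.28 FPKM in R3-Cntl SFZ and 3.15, 3.16 and 2.90 in R3-Cntl DZ.

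In R3-cKO, limma called 0 of 39 repair genes and 0.0176% of 11336 genes, and at an unadjusted p under 0.05 2 repair genes were lower in DZ, Rad51d and Rmi1, beside 1258 lower and 344 higher over all. The median was 0.04 for the repair genes and -0.09 for all genes, and 0.22 and 0.04 with quantile normalization. Its sign changed with 1 library left out, from -0.16 without DZ library 2 and -0.15 without SFZ library 3 to 0.21 without SFZ library 2 and 0.23 without DZ library 3. The fits without library 2 of either zone tested 33 repair genes, and those without library 3 tested 39. These medians are therefore not all over the same genes. Same-numbered libraries also deviated together between these groups. With the replicate number as a block, 67 genes were called higher and 285 lower, and still 0 repair genes, with 6 at an unadjusted p under 0.05.

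Some repair genes separated the zones. In R3-Cntl, 12 of 38 did not overlap, beside 32.4% of all genes, so the share was not above the background. Of these 10 were lower in DZ (Msh6, Msh3, Pms1, Fance, Fancf, Fancm, Rmi1, Rad51d, Xrcc3 and Atm) and Mlh3 and Lig4 were higher. In R3-cKO, 5 of 39 were lower in every DZ library (Xrcc5, Fance, Rmi1, Rad51d and Xrcc3), beside 21.0%, again not above it.

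**Figure D4:**
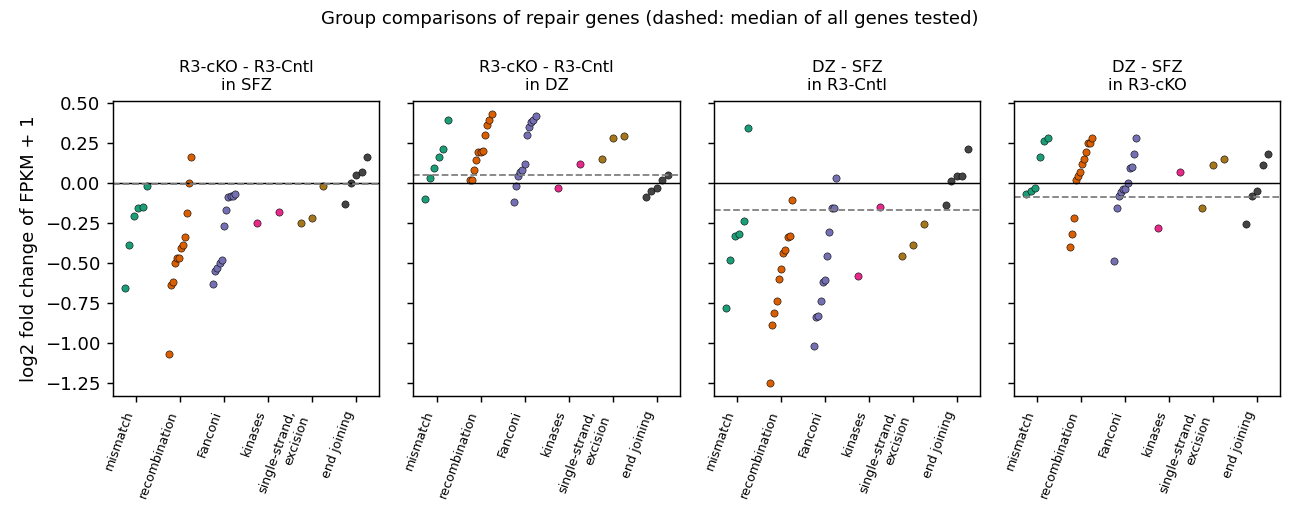
Log2 fold change of each tested repair gene (points, by class) in the 4 group comparisons, with a line at 0 and a dashed line at the median of all genes tested. The end joining points stay between -0.26 and 0.21, and the recombination points reach -1.07 in SFZ and -1.25 between the zones of R3-Cntl.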

How the data were processed

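Total RNA of 12 libraries was sequenced by the submitters, whose processing notes name Bowtie 0.12.2 and mm9. The deposited table holds 1 value per gene and library, read here as FPKM scaled by TMM by the authors. This unit is inferred: the study's methods also describe a quantile step and models of log2 CPM, which these linear values do not carry. Counts and read depth are not given in the sources used here, so precision rests on the spread between libraries.

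All values were taken as log2(FPKM + 1). A gene was tested where 3 or more libraries of the fit held 1 FPKM or more, with limma 3.58.1 in R 4.3.3 (moderated test with a mean-variance trend, Benjamini-Hochberg over all genes tested, threshold 0.05). The steps were tested on simulated data, as a check that slopes and fold changes put in were recovered. For the group comparisons the simulated noise was drawn separately for each gene, without index differences within groups. It therefore does not bear on the power of these comparisons. Slopes used all 12 libraries with group terms, and the group comparisons only the libraries compared. Figures were drawn with matplotlib 3.10.9 in Python 3.11.15.

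The repair genes, the index and the gene lists were chosen with earlier results of these data known. Values in every library are given for the 2 highest and the 2 lowest slopes of each class of at least 5 genes and for all genes of smaller classes. Of the other repair genes the 4 highest and 4 lowest slopes are named, and the 5 genes closest to homologous recombination. Other genes, and the grouping of recombination and Fanconi genes by complex, were chosen after their values were seen.

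Alternatives were pseudocounts of 0.1 and 5, no filter, a mean of at least 5 FPKM, quantile normalization, median-of-ratios size factors, a replicate block, the S-phase index, Mki67 as the index, single zones, no group terms, and libraries left out. Pairing was checked on deviations from group means over 11359 genes. Same-numbered libraries correlated at 0.65, 0.78 and 0.69 between genotypes in DZ and at 0.42, 0.78 and 0.65 between zones in R3-cKO, from the data and not from the labels. Between genotypes in SFZ (0.79, -0.09 and -0.42) and between zones in R3-Cntl (0.58, 0.11 and -0.15) only number 1 paired clearly. With R3-Cntl SFZ libraries 2 and 3 exchanged, the other 2 correlations were 0.69 and 0.45 between genotypes and 0.58 and 0.38 between zones. Whether these numbers were exchanged was not tested, and the replicate block used the numbers as labelled.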

Additional observations from a re-analysis of the deposited data

How the results depend on the processing

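The count of repair genes whose slope on the mitosis index passed was 27 of 40, and every gene that passed under an alternative was among these. It was also 27 with pseudocounts of 0.1 or 5, median-of-ratios size factors, quantile normalization, no filter, no group terms, Mki67 as the index and the S-phase index. It fell to 6 of 10 tested where a mean of 5 FPKM or more was asked for, to 18 of 39 in SFZ libraries alone and to 13 of 38 in DZ libraries alone. Without the 2 libraries farthest from the median of the index it was 25 of 39, and without R3-Cntl SFZ library 2 and R3-cKO SFZ library 3 it was 26. With 1 library left out it ran from 22 to 27, and was 22 without R3-cKO SFZ library 2, where the share of all genes higher was 12.0% in place of 21.5% and 357 genes were lower in place of 1234.

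With a replicate block, which treats same-numbered libraries as paired across all groups although SFZ numbers 2 and 3 do not pair, 25 repair genes passed, beside 12.4% of all genes, and Atm at 0.157 lost its call. The slopes that reversed were Mlh3 at 0.075, Fance at -0.032, Lig4 at -0.017 and Xrcc5 at -0.035, and the cause was not tested. In the zone comparison of R3-Cntl, where numbers 2 and 3 as labelled did not pair either, the replicate block called 150 genes higher and 681 lower, and 0 repair genes.

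The other slopes that changed sign lay between -0.01 and 0.05 in the fit to 12 libraries. With quantile normalization Fance was -0.019, Lig4 -0.007 and Xrcc5 -0.038. With median-of-ratios size factors Xrcc3 was -0.003, Fancc -0.003, Fance -0.011, Lig4 -0.010 and Xrcc5 -0.012. With Mki67 as the index Prkdc was 0.003. In SFZ libraries alone Fance was -0.013, Rmi1 -0.001 and Xrcc5 -0.061. In DZ libraries alone Xrcc3 was -0.004, Rad51d 0.011, Fancc -0.078, Lig4 -0.024, Prkdc 0.028 and Fancg -0.008. Without group terms Rad51d was 0.015 and Lig4 -0.016. Without the 2 libraries farthest from the median of the index Fancc was -0.041 and Prkdc 0.026. Without R3-Cntl SFZ library 2 and R3-cKO SFZ library 3 Fancc was -0.050 and Prkdc 0.010.

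With 1 library left out, the slope ran from -0.042 to 0.021 for Mlh3, -0.004 to 0.040 for Xrcc3, -0.019 to 0.016 for Rad51d, -0.055 to 0.050 for Fancc, -0.015 to 0.049 for Fance, -0.030 to 0.038 for Lig4 and -0.022 to 0.011 for Prkdc, and the slope of Xrcc5 fell as low as -0.019. The slopes of Exo1, Rad51ap1, Rad54l, Fancb and Fanci passed under all 24 alternatives that kept the filter. Without R3-cKO SFZ library 2 Pms2 (0.160) and Xrcc6 (0.159) were among the genes that lost their calls. The call of Xrcc6 was also lost without the 2 libraries farthest from the median of the index (0.156). Of the repair genes with values given in every library, Atr, Atm, Xrcc6, Xrcc1 and Ercc1 lost their calls in SFZ libraries alone. In DZ libraries alone Pms2, Atr, Atm, Xrcc6, Parp1 and Ercc1 did. Other repair genes also lost their calls in both. These fits hold 6 libraries. The group comparisons called 0 repair genes under every alternative.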

Other observations

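The sum over 12 osteoblast and osteoclast genes was 3575, 6938 and 4012 FPKM in R3-Cntl SFZ, 3723, 3517 and 9726 in R3-cKO SFZ, 238, 616 and 2066 in R3-Cntl DZ, and 265, 528 and 1198 in R3-cKO DZ. All 6 SFZ libraries were above all 6 DZ libraries, and R3-cKO SFZ library 3 was highest. Of the skeletal muscle genes, Actc1 was the most abundant in R3-Cntl SFZ library 2, the 1 library with a high sum.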
